A study of Mus musculus with 24 samples.

Results

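The 10 genes described here are the growth factor gene Igf2, the noncoding RNA gene H19 beside it, the receptor adaptor gene Grb10, the receptor genes Igf2r and Igf1r, the genes Igf2bp1, Igf2bp2 and Igf2bp3 for proteins that bind Igf2 mRNA, and Cdkn1c and Peg3. They were taken by name from the 55335 genes of the deposited tables, and all 10 matched. They were chosen by RNA level, in that the list was drawn up after Igf2 and Grb10 had been seen to be low in MC38 knock-out tumours given PBS. Levels in that comparison are therefore given as a description, with no test. RNA was sequenced from tumours of 2 mouse cancer lines, MC38 (colon carcinoma) and B16 (melanoma). In each line the cells were parental with intact Chek2 (WT) or had Chek2 knocked out (KO), and the mice received PBS or anti-PD-1, an antibody against an inhibitory receptor of T cells. This gave 8 groups of 3 libraries: MC38 WT PBS, MC38 KO PBS, MC38 WT anti-PD-1, MC38 KO anti-PD-1 and the same 4 for B16. The mouse strain, age and sex, the antibody dose, the harvest day and the number of knock-out clones are not given in the sources used here. Nor do the labels tie each library to its own animal. The p-values therefore measure the spread between libraries, which may be technical. A tumour also holds cells of the host mouse, whose genotype is not given in the sources used here.

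IGF-II, the product of Igf2, is a fetal growth factor that signals through the receptor encoded by Igf1r and is cleared from the surface by the receptor encoded by Igf2r. Igf2 and H19 are neighbours on chromosome 7 and are imprinted in opposite ways, Igf2 being read from the paternal and H19 from the maternal copy, under a shared control region that binds CTCF. Grb10 encodes an adaptor that restrains signalling of the insulin and IGF-I receptors, Cdkn1c an inhibitor of cyclin-dependent kinases, and Peg3 a zinc finger protein. Grb10, Igf2r, Cdkn1c and Peg3 are imprinted in the mouse too. Igf2bp1 and Igf2bp3 are active in the embryo, mostly silent in adult tissue and often active again in tumours.

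The start regions of Grb10 and Igf2, whose RNA differed most between MC38 genotypes under PBS, are shown with each CG, the pair of letters that DNA methylation acts on, in capitals. Each run is the 250 bases before a start site in RefSeq for GRCm38.p6 (mm10), on the minus strand. RefSeq held such regions for 7 of the 10 genes, with more than 1 for Grb10 and Igf2. The CG-rich start of Grb10 lies at chr11:12037421-12037670 and its inner start at chr11:12027972-12028221. The Igf2 start shown, at chr7:142658805-142659054, holds the most CG of its 4. The files give 1 value per gene, so which start was used in these tumours was not measured.
Grb10 CG-rich start: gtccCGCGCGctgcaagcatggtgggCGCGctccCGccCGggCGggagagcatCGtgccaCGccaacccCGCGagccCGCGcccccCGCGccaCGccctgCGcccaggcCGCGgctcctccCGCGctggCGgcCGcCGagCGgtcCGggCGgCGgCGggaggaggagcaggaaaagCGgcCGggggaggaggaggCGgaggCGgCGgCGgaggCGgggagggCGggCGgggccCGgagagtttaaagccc
Grb10 inner start: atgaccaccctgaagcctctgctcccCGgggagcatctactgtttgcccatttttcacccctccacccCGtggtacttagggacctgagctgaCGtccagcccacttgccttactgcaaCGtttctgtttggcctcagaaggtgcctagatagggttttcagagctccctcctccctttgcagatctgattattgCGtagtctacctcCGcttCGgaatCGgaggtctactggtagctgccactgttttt
Igf2 start richest in CG: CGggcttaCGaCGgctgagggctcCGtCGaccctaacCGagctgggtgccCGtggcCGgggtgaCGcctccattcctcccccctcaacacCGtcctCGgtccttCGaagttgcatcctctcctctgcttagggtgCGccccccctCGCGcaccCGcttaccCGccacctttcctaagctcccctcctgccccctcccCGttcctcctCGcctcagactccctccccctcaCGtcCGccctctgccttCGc
The first run holds 40 CG, a number that 1.31% of the 32851 RefSeq start regions of the same length reach, and the second holds 8, which 43.0% reach. The Igf2 run holds 22, which 14.8% reach, whereas the median region holds 6. The first exon of H19 also gives rise to the microRNA miR-675, whose arms are written below as RefSeq has them, with the seed (bases 2 to 8 from the 5′ end) in capitals. The mature arms were not measured.
miR-675-5p: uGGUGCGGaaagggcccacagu
miR-675-3p: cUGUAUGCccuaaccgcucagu

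The values are FPKM, fragments per kilobase of transcript, scaled to sequencing depth, and differences are on the log2(FPKM + 1) scale with their standard error, KO minus WT or anti-PD-1 minus PBS. The added 1 makes differences of low genes smaller than their fold change. Depth came to 13650000 to 24270000 fragment equivalents per library, at which 1 fragment of Igf2 is worth 0.0072 to 0.0128 FPKM. Chek2 itself ranged from 1.92 to 3.37 FPKM in the 6 MC38 KO libraries against 4.61 to 6.14 in the 6 WT libraries, and from 5.64 to 6.75 against 7.17 to 9.29 in B16. Whether the deleted part is among the counted bases is not given. The 7 melanocyte genes summed to between 4885 and 6285 FPKM in B16 and between 1.00 and 4.03 in MC38. The 8 epithelial genes were low in MC38 (1.26 to 48.8 FPKM in sum), with Cdx2 at 0 in all 12 libraries. The 3 B16 KO anti-PD-1 libraries stood apart from the other 21, with FPKM sums of 375193 to 398474 against at most 344059. In the B16 comparisons that use them, rescaling to protein-coding genes lowered the median of all genes, from -0.05 to -0.23 for KO against WT under anti-PD-1. The split of called genes there went from 2034 higher and 3526 lower to 630 and 4448. For the KO difference under anti-PD-1 in MC38 minus B16, which subtracts these libraries, the median rose from 0.04 to 0.19. In bulk tissue, fewer cells of a type and less RNA per cell cannot be told apart.

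**Figure D1:**
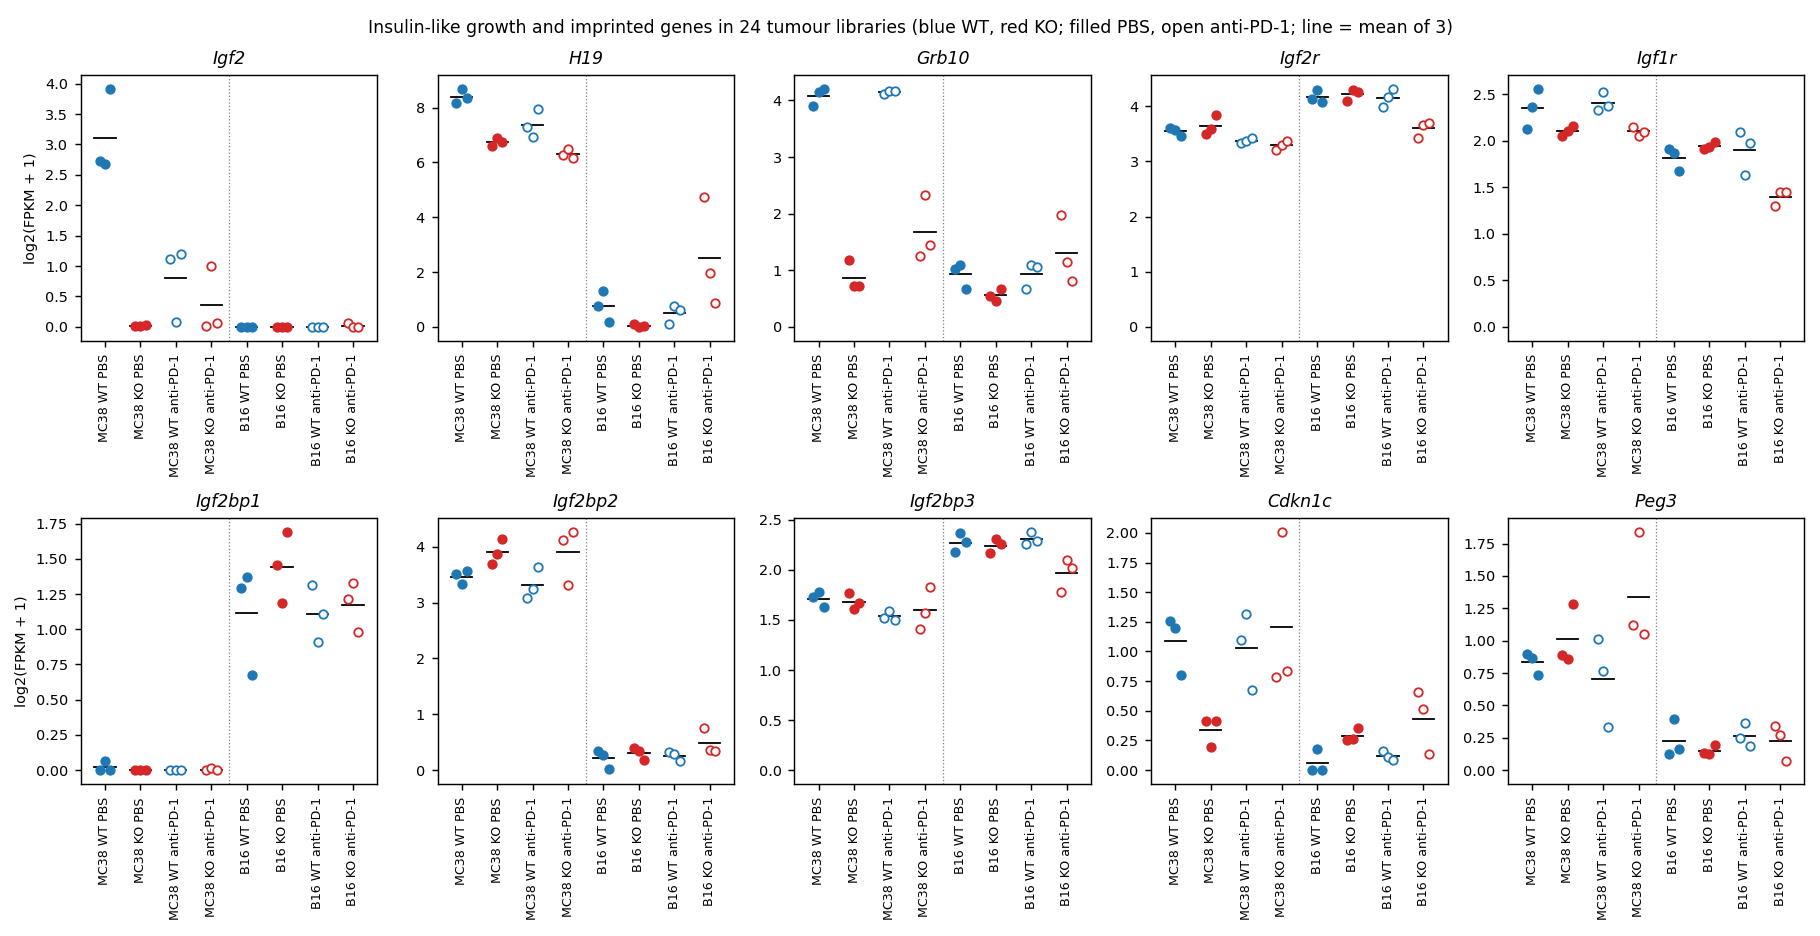
Level of each of the 10 genes in all 24 libraries, as log2(FPKM + 1) on the vertical axis (scaled per gene) with the 8 groups of 3 libraries on the horizontal axis. Blue is WT, red KO, filled PBS, open anti-PD-1, and a line marks the group mean. Grb10 in MC38 stood at 13.9 to 17.5 FPKM in the 6 WT libraries and at 0.639 to 4.05 in the 6 KO libraries.

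Igf2, the ligand gene, was expressed in MC38 WT tumours and near the limit of detection in KO tumours, both under PBS. Under PBS it stood at 5.64, 5.41 and 14.1 FPKM in WT and at 0.0102, 0.0152 and 0.0191 in KO. The KO values correspond to few fragments, so no fold is given; the difference was -3.09 ± 0.389 on the log2(FPKM + 1) scale. Under anti-PD-1 the levels were 1.16, 0.0611 and 1.29 FPKM in WT and 0.00583, 0.999 and 0.0428 in KO. These groups overlapped, because KO replicate 2 lay above WT replicate 2, although below the other 2 WT libraries. The difference was -0.44 ± 0.389 with a 95% interval from -1.30 to 0.42 (limma, Benjamini-Hochberg adjusted p = 0.500), which includes 0. Whether the KO difference itself changed with treatment was not tested in MC38.

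Set against the PBS libraries of its genotype, Igf2 under anti-PD-1 was lower in WT, with no overlap (-2.31 ± 0.389), and higher in KO replicate 2 alone by a wide margin (0.34 ± 0.389 over the group). The list was drawn up on those PBS values, and Igf2 entered the MC38 fit through WT libraries only, so these differences are a description with no test. Limma called none of the 14209 genes between treatments in MC38 WT (0% called), with 1953 at an unadjusted p under 0.05. The transcript Igf2os, antisense to Igf2, stood at 0.159 to 0.418 FPKM in WT PBS, 0.0331 to 0.0819 in WT anti-PD-1 and 0 in all 6 KO libraries. The counting of strand is not stated. Reads of Igf2, Igf2os and the overlapping readthrough gene Gm49394 (at most 0.528 FPKM in MC38) may be mixed where exons overlap.

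H19 was the most abundant of the 10 genes in MC38 and was lower in KO under each treatment. Under PBS it stood at 285, 412 and 326 FPKM in WT and at 96.9, 119 and 106 in KO, 3.18-fold lower by the means. Under anti-PD-1 the levels were 155, 120 and 244 in WT and 75.6, 89.8 and 71.2 in KO. In each treatment every KO library lay below every WT library. The difference under anti-PD-1 was -1.07 ± 0.223, a 2.19-fold lower mean (limma adjusted p = 0.0123). Without KO anti-PD-1 replicate 3 the adjusted p was 0.0515. H19 was also lower under anti-PD-1 than under PBS, by -1.02 ± 0.223 in WT (limma adjusted p = 0.109) and by -0.44 ± 0.223 in KO (limma adjusted p = 0.266), neither past the threshold although the groups did not overlap. The tests between treatments in MC38 share their PBS libraries with the comparison that led to the list. By group mean H19 ranked as WT PBS, WT anti-PD-1, KO PBS and KO anti-PD-1, with no overlap between neighbours in that order.

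Grb10, the adaptor that restrains insulin-type receptors, was low in all 6 MC38 KO libraries. Under PBS it stood at 13.9, 16.8 and 17.5 FPKM in WT and at 1.25, 0.640 and 0.639 in KO, 19.02-fold lower by the means. Under anti-PD-1, in libraries not used to draw up the list, it stood at 16.3, 17.0 and 17.0 in WT and at 1.39, 4.05 and 1.72 in KO. The highest KO library stayed well under the lowest WT library. The difference was -2.47 ± 0.236, a 7.03-fold lower mean (limma adjusted p = 0.000252), and it was called under every alternative tried (adjusted p from 5.2e-05 to 0.00199). Between treatments Grb10 in WT overlapped, with a difference of 0.07 ± 0.236. In KO it was 0.81 ± 0.236 higher under anti-PD-1, without overlap. The list was drawn up on the low KO PBS values, which favours a rise from them, so the differences between treatments are given with no test.

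Neither receptor gene was called between MC38 genotypes under anti-PD-1. Igf2r, which encodes the receptor that clears IGF-II, stood at 11.2, 10.9 and 10.03 FPKM in WT PBS and at 10.3, 11.04 and 13.3 in KO PBS. Under anti-PD-1 it stood at 9.08, 9.39 and 9.76 in WT and at 8.29, 8.79 and 9.34 in KO. The KO difference under anti-PD-1 was -0.09 ± 0.0881 with a 95% interval from -0.28 to 0.11 (limma adjusted p = 0.557). In KO tumours Igf2r fell by 0.35 ± 0.0881 from PBS to anti-PD-1 (limma adjusted p = 0.0322), but the call was lost under 6 of 10 alternatives. Airn, a transcript antisense to Igf2r, stood at 1.54 to 3.25 FPKM in MC38. Its reads may be mixed with those of Igf2r where exons overlap. Igf1r, which encodes the signalling receptor, stood at 3.38, 4.13 and 4.89 FPKM in WT PBS and at 3.15, 3.29 and 3.45 in KO PBS. Under anti-PD-1 the levels were 4.03, 4.76 and 4.19 in WT and 3.44, 3.15 and 3.29 in KO, all 3 below WT, with a difference of -0.31 ± 0.104 that missed the threshold (limma adjusted p = 0.0781).

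Of the genes for Igf2 mRNA-binding proteins, Igf2bp2 was the abundant one in MC38, Igf2bp3 was present and Igf2bp1 was at or near 0. Igf2bp2 stood at 10.3, 9.10 and 10.8 FPKM in WT PBS and at 11.9, 13.6 and 16.6 in KO PBS, all KO libraries being higher. Under anti-PD-1 it stood at 7.44, 8.48 and 11.4 in WT and at 16.4, 8.96 and 18.2 in KO, where KO replicate 2 fell among the WT libraries. The difference was 0.58 ± 0.228 (limma adjusted p = 0.126). Of 10 alternatives, only leaving out KO anti-PD-1 replicate 2 gave a call, at 0.87 (limma adjusted p = 0.0151). Without KO anti-PD-1 replicate 3 the difference was 0.40 (limma adjusted p = 0.3465). Igf2bp3 ranged from 1.66 to 2.55 FPKM over the 12 MC38 libraries, with a KO difference under anti-PD-1 of 0.07 ± 0.109 and a 95% interval from -0.18 to 0.31 (limma adjusted p = 0.742). Igf2bp1 was listed at 0 in 10 of the 12 libraries and at most at 0.0441 FPKM.

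Cdkn1c, the cell cycle inhibitor gene, stood at 1.39, 1.30 and 0.744 FPKM in MC38 WT PBS and at 0.332, 0.144 and 0.333 in KO PBS, without overlap. Under anti-PD-1 it stood at 1.14, 1.49 and 0.593 in WT and at 0.725, 3.02 and 0.785 in KO. The groups overlapped there, with a difference of 0.18 ± 0.298 (limma adjusted p = 0.737) that was -0.22 without KO replicate 2. Peg3 stood at 0.858, 0.827 and 0.668 FPKM in WT PBS and at 0.856, 0.817 and 1.44 in KO PBS. Under anti-PD-1 all KO libraries (1.17, 2.58 and 1.07) were above those of WT (1.01, 0.701 and 0.263), by 0.63 ± 0.230 (limma adjusted p = 0.102).

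Under PBS, 5 of the 10 genes had MC38 groups that did not overlap (Igf2, H19, Grb10 and Cdkn1c lower, Igf2bp2 higher), where 39.8% of all tested genes had such groups (20.4% higher and 19.5% lower). Limma called 23.4% of genes there. Under anti-PD-1, 9 of the 10 genes entered the MC38 fit, Igf2 only through WT libraries. Limma called 2 of them, H19 and Grb10, both lower in KO, where 12.1% of all 14209 genes were called (5.01% higher and 7.05% lower). Groups did not overlap for 4 (H19, Grb10 and Igf1r lower, Peg3 higher), where 34.1% of all genes had such groups (16% higher and 18% lower). In KO tumours Igf2r was called between treatments, with a lower level under anti-PD-1, where 8.99% of genes were called and 2.86% were lower. That comparison uses the KO PBS libraries on which the list was drawn up, and Igf2 and Grb10 are given there with no test.

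Transcripts of other tissues varied between MC38 libraries. The 10 skeletal muscle genes summed to 3.24 to 37.2 FPKM in WT PBS, 3.34 to 130.1 in KO PBS, 14.8 to 322.6 in WT anti-PD-1 and 31.5 to 468.9 in KO anti-PD-1. The highest sum was in KO anti-PD-1 replicate 2, also the library with the highest Igf2, H19, Cdkn1c, Peg3 and Grb10 of its group. Its 6 adipocyte genes summed to 119.5 FPKM and its 9 fibroblast genes to 912.5. The library with the next highest muscle sum, WT anti-PD-1 replicate 2, had the lowest Igf2 and H19 of its group but the highest Cdkn1c. Without KO anti-PD-1 replicate 2 the Grb10 difference under anti-PD-1 was -2.80 and that of H19 -1.16. Under PBS the fibroblast genes summed to 563.1 to 716.3 FPKM in WT and 406.3 to 476.5 in KO, with 2 of 9 called lower in KO (Pdgfra and Thy1). The 8 leukocyte genes summed to 142.3 to 170.2 in WT and 68.3 to 134.0 in KO under PBS, with 4 of the 7 tested called lower. Of all 14209 genes tested, 1643 were called lower in KO under PBS. Under anti-PD-1 the leukocyte genes summed to 157.8 to 162.6 in WT and 197.4 to 218.0 in KO. Their part in the member levels was not tested.

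**Figure D2:**
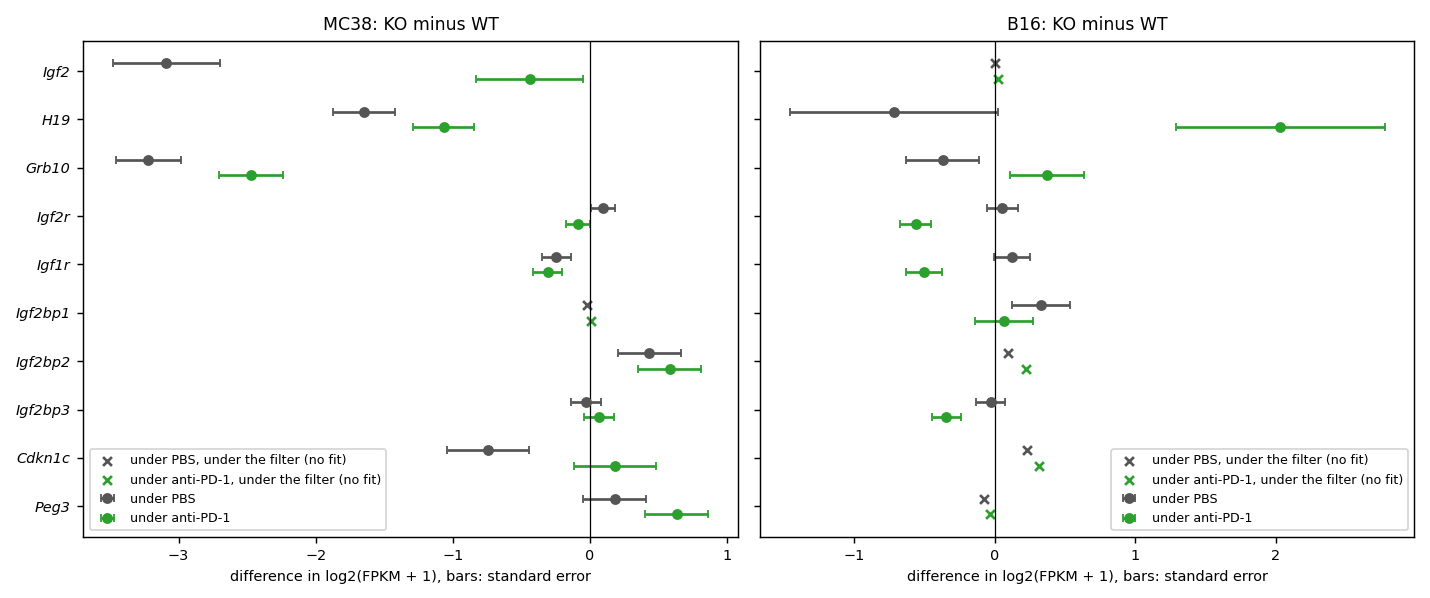
KO minus WT difference of each gene in MC38 (left) and B16 (right), in units of log2(FPKM + 1) on the horizontal axis, under PBS (grey) and anti-PD-1 (green). Bars are standard errors from the fit of the line's 12 libraries, and crosses are genes under the filter of 1 FPKM in 3 libraries. In MC38 the points of H19 and Grb10 lie left of 0 under each treatment (-1.65 and -3.22 under PBS, -1.07 and -2.47 under anti-PD-1).

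In B16 melanoma Igf2 was at or near 0 and H19 was scarce. Igf2 was listed at 0 in 11 of 12 libraries and at 0.0438 FPKM in KO anti-PD-1 replicate 1. H19 stood at 0.710, 1.497 and 0.141 FPKM in WT PBS, at 0.0633, 0 and 0.0299 in KO PBS and at 0.0826, 0.682 and 0.534 in WT anti-PD-1. In KO anti-PD-1 it stood at 25.8, 2.95 and 0.805, above every WT anti-PD-1 library but spread widely. The difference from WT was 2.03 ± 0.741 (limma adjusted p = 0.0473). The call was lost without a filter on low values (0.122) and when any of the WT anti-PD-1 libraries was left out (0.116, 0.0735 and 0.0928 for replicates 1 to 3). Leaving out replicate 1 or 2 of KO anti-PD-1 took H19 below the filter. H19 needed the KO anti-PD-1 libraries, where it was higher, to pass the filter, so this call supports nothing. The same 3 KO anti-PD-1 libraries had skeletal muscle sums of 1926, 175.5 and 9.42 FPKM, against 1.16 to 2.99 in the other 9, in the order of their H19 levels. Of the 10 muscle genes, 6 were at 0 in all WT anti-PD-1 libraries. In KO anti-PD-1 the fibroblast sums ran from 56.9 to 360.3 FPKM and the adipocyte sums from 18.4 to 89.1. Their part in the H19 level was not tested.

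**Figure D3:**
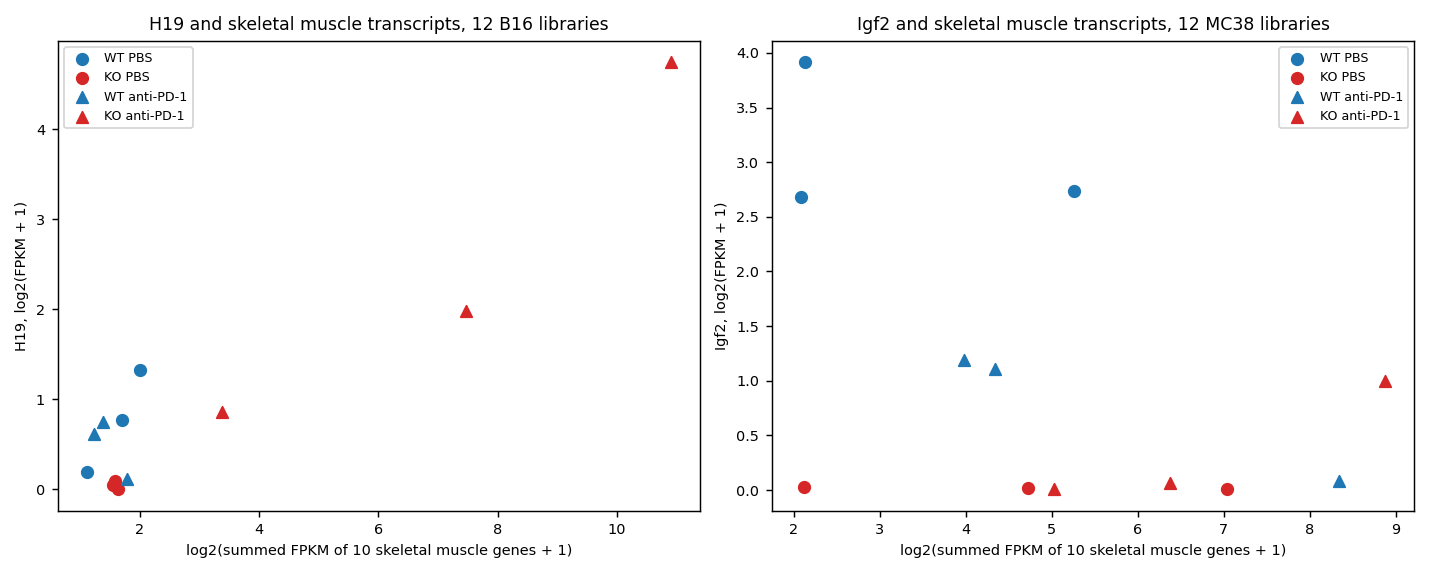
H19 in the 12 B16 libraries (left) and Igf2 in the 12 MC38 libraries (right) on the vertical axis, as log2(FPKM + 1), against the summed level of 10 skeletal muscle genes on the horizontal axis, as log2(summed FPKM + 1). Circles are PBS, triangles anti-PD-1, blue WT and red KO. In B16 the libraries with muscle sums of 1926 and 175.5 FPKM hold the highest H19 (25.8 and 2.95), while in MC38 the highest Igf2 (14.1) is in a library with a muscle sum of 3.39.

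The receptor genes were lower in B16 KO tumours under anti-PD-1. Igf2r stood at 14.9, 17.0 and 18.9 FPKM in WT anti-PD-1 and at 9.80, 11.6 and 12.03 in KO anti-PD-1, below all 9 other B16 libraries, which ranged from 14.9 to 18.9. The KO difference was -0.56 ± 0.110 (limma adjusted p = 0.00240) and was called under every alternative tried. Igf1r stood at 3.28, 2.10 and 2.94 in WT and at 1.47, 1.74 and 1.72 in KO, a difference of -0.50 ± 0.127 (limma adjusted p = 0.00954, and 0.0602 after quantile normalization). Under PBS the KO differences were 0.05 ± 0.110 for Igf2r (95% interval -0.19 to 0.30, limma adjusted p = 0.889) and 0.12 ± 0.127 for Igf1r (limma adjusted p = 0.736). The genotype by treatment interaction was called for each, at -0.62 ± 0.156 for Igf2r (limma adjusted p = 0.0179) and -0.63 ± 0.180 for Igf1r (limma adjusted p = 0.0297). The call of Igf1r was lost under 8 of 16 alternatives, and that of Igf2r under none. Relative to the median of all genes, the KO differences under anti-PD-1 were -0.51 for Igf2r and -0.45 for Igf1r, and -0.56 and -0.43 after rescaling to protein-coding genes. Airn stood at 0.296 to 1.17 FPKM in B16.

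Igf2bp3 and Igf2bp1 were the mRNA-binding members read in B16, and Igf2bp2 was at most 0.679 FPKM. Igf2bp3 stood at 3.78, 4.20 and 3.89 FPKM in WT anti-PD-1 and at 2.43, 3.27 and 3.06 in KO anti-PD-1, a difference of -0.34 ± 0.102 (limma adjusted p = 0.0206). The call was lost after quantile normalization (0.0963), on leaving out replicate 2 of WT anti-PD-1 (0.0658) or replicate 1 of KO anti-PD-1 (0.0744). The gene span of Igf2bp3 overlaps that of Malsu1 on the other strand, at 3.91 to 7.44 FPKM in B16. Their reads may be mixed where exons overlap, which was not examined. Igf2bp1 ranged from 0.597 to 2.23 FPKM, with a KO difference under anti-PD-1 of 0.06 ± 0.208 and a 95% interval from -0.39 to 0.52 (limma adjusted p = 0.822).

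Grb10 was low in B16 whatever the genotype. It stood at 1.03, 1.14 and 0.586 FPKM in WT PBS and at 0.459, 0.377 and 0.586 in KO PBS. Under anti-PD-1 it stood at 0.586, 1.13 and 1.09 in WT and at 2.92, 1.21 and 0.754 in KO. The KO difference was -0.37 ± 0.262 under PBS (limma adjusted p = 0.594) and 0.37 ± 0.262 under anti-PD-1 (limma adjusted p = 0.277), with overlap in each. Cdkn1c stayed at or below 0.576 FPKM and Peg3 at or below 0.312, both under the filter. Cdkn1c was higher in KO than in WT under PBS without overlap (0.192 to 0.276 against 0 to 0.133 FPKM), where an exact two-sided permutation test of 3 against 3 gave p = 0.10, the smallest it allows. Igf2bp2 gave the same exact p under anti-PD-1.

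In counts, 6 of the 10 genes entered the B16 fit, H19 only through libraries of WT PBS and KO anti-PD-1. Neither WT anti-PD-1 nor KO PBS libraries of H19 reached 1 FPKM, so its calls in KO anti-PD-1 against either group support nothing. None was called between KO and WT under PBS, where 0.47% of 13627 genes were called (38 higher and 26 lower, or 16 and 28 with protein-coding genes alone and 45 and 19 after quantile normalization). With 1 library left out, 10 to 17 genes were called in place of 64. Under anti-PD-1 4 were called, 3 lower and H19 higher, where 40.8% of all genes were called (14.9% higher and 25.9% lower). Between treatments none was called in WT (0% of all genes, 281 at an unadjusted p under 0.05) and 5 in KO, where 43.9% were called (18.9% higher and 25% lower). In KO, Igf2r (-0.62 ± 0.110), Igf1r (-0.54 ± 0.127) and Igf2bp3 (-0.28 ± 0.102) fell and H19 (2.48 ± 0.741) and Grb10 (0.75 ± 0.262) rose, with limma adjusted p from 0.00137 to 0.0452. The calls of Igf2bp3 and Grb10 were each lost under 7 of 10 alternatives, and that of H19 without a filter (0.0592). The main split of 2580 higher and 3408 lower became 1133 and 3954 with protein-coding genes alone. In the interaction 2 members were called, both negative, where 23.5% of all genes were called and 14.6% were negative, with a split of 1213 and 1990, or 365 and 2445 with protein-coding genes alone. These comparisons share libraries and are not independent.

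The lines differed in nearly all of these genes. In WT tumours under anti-PD-1, H19 averaged 173 ± 64.1 FPKM in MC38 and 0.433 ± 0.312 in B16, Grb10 16.8 ± 0.387 and 0.934 ± 0.302, and Igf2bp2 9.12 ± 2.08 and 0.200 ± 0.0682 (SD, n = 3 each). Igf2r (9.41 ± 0.340 against 17.0 ± 2.03), Igf2bp3 (1.90 ± 0.0956 against 3.95 ± 0.217) and Igf2bp1 (listed at 0 against 1.18 ± 0.303) were lower in MC38. A fit of all 24 libraries called all 10, with 7 higher and 3 lower in MC38, where 62.9% of 15655 genes were called (32.9% higher and 30% lower). Igf2, Igf2bp2, Cdkn1c and Peg3 reached 1 FPKM in MC38 libraries alone and Igf2bp1 in B16 libraries alone, so these 5 passed the filter only through the line where they were higher, and their calls support nothing. The calls of Igf2 and Peg3 were lost under 6 and 7 of 10 alternatives. Line and any run of sequencing cannot be told apart.

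The KO difference itself under anti-PD-1 was compared between lines in that fit. MC38 minus B16, it was -2.84 ± 0.365 for Grb10 (limma adjusted p = 1.4e-05) and -3.10 ± 0.827 for H19 (limma adjusted p = 0.00745). For Igf2r it was 0.47 ± 0.141 higher in MC38 (limma adjusted p = 0.0149) and for Igf2bp3 0.41 ± 0.142 higher (limma adjusted p = 0.0339, lost under 8 of 16 alternatives). These were the 4 members called, where 31.8% of all genes were called, 19.4% higher and 12.4% lower (3034 higher and 1941 lower, or 3690 and 832 with protein-coding genes alone). The B16 side of the H19 value comes from the KO anti-PD-1 libraries with muscle transcripts, whose part was not tested.

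Other genes of the pathway were read from lists chosen with earlier results of these data known. Of 13 further IGF ligand, receptor and adaptor genes, 7 entered the MC38 fit. Irs2, an adaptor of the insulin receptor, was the 1 called under PBS (from 2.76 ± 0.605 to 1.79 ± 0.103 FPKM, WT to KO, -0.42 ± 0.128, limma adjusted p = 0.0366), and none was called under anti-PD-1. Their median KO difference was -0.28 under PBS and -0.18 under anti-PD-1, against 0.01 and 0.00 over all genes. Igf1, the other IGF ligand gene, reached 8.33 FPKM in MC38 KO anti-PD-1 replicate 2 and 0.446 to 3.98 in the other 11, and Ins2 was listed at 0 in all 24 libraries. Of 14 IGF binding protein and protease genes, 9 entered the fit and Stc2, an inhibitor of the protease PAPP-A, was higher in KO under PBS (0.68 ± 0.102, limma adjusted p = 0.00147) and anti-PD-1 (0.45 ± 0.102, limma adjusted p = 0.0186). Of 20 PI3K, AKT and mTOR genes, 2 rose and 1 fell under PBS and 1 each under anti-PD-1. Pik3r2, a regulatory subunit of PI3 kinase, was lower under each treatment (-0.41 ± 0.0752 and -0.55 ± 0.0752, limma adjusted p = 0.00394 and 0.00168). Of 10 oncofetal partners of the IGF2BP proteins, 7 entered the fit and none was called under either treatment. Of all genes, limma called 23.4% under PBS and 12.1% under anti-PD-1, and no list of this paragraph had a higher share.

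Of 51 other imprinted genes, 24 entered the MC38 fit, and 4 were lower and 1 higher in KO under PBS, with 3 lower under anti-PD-1. These counts are near the share of all genes called, 23.4% under PBS and 12.1% under anti-PD-1. The median difference was 0.03 under PBS and 0.02 under anti-PD-1, against 0.01 and 0.00 over all genes. Dcn, which encodes the matrix proteoglycan decorin, stood at 175, 127 and 222 FPKM in WT anti-PD-1 and at 41.3, 97.3 and 48.5 in KO anti-PD-1, a difference of -1.54 ± 0.283 (limma adjusted p = 0.00694), and at -2.09 ± 0.283 under PBS. Decorin is also made by fibroblasts. Under anti-PD-1 the 9 fibroblast genes summed to 320.2 to 713.6 FPKM in WT and 370.9 to 912.5 in KO, with none called and a median difference of 0.78, and under PBS they were lower in KO as given above. Their part in the Dcn level was not tested. Sfmbt2, a Polycomb gene, stood at 6.33, 6.91 and 7.25 in WT anti-PD-1 and at 3.97, 2.67 and 3.08 in KO anti-PD-1, -0.89 ± 0.141 (limma adjusted p = 0.00338). H13, a signal peptide peptidase gene, was lower by -0.37 ± 0.0605 (limma adjusted p = 0.00379). Under PBS Commd1 was also lower (-0.26 ± 0.0769, limma adjusted p = 0.0323) and Phlda2, a growth-limiting gene of the placenta, higher (1.02 ± 0.296, limma adjusted p = 0.0301). Of 17 regulators of imprinting, 15 entered the fit. Dnmt3l, a cofactor of DNA methyltransferases, rose under PBS (0.097 ± 0.0562 to 0.825 ± 0.230 FPKM, WT to KO). Under anti-PD-1 it rose as well (0.0917 ± 0.0253 to 0.917 ± 0.249). Its limma adjusted p was 0.00572 under PBS and 0.00641 under anti-PD-1. Dnmt3l passed the filter only through KO libraries, where it was higher, so these calls support nothing. Tet3, which oxidises methylcytosine, rose under each treatment (0.44 ± 0.0824 and 0.34 ± 0.0824). Dnmt3a rose under PBS and Uhrf1 fell under anti-PD-1. Ctcf, whose product binds the H19 and Igf2 control region, was not called.

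**Figure D4:**
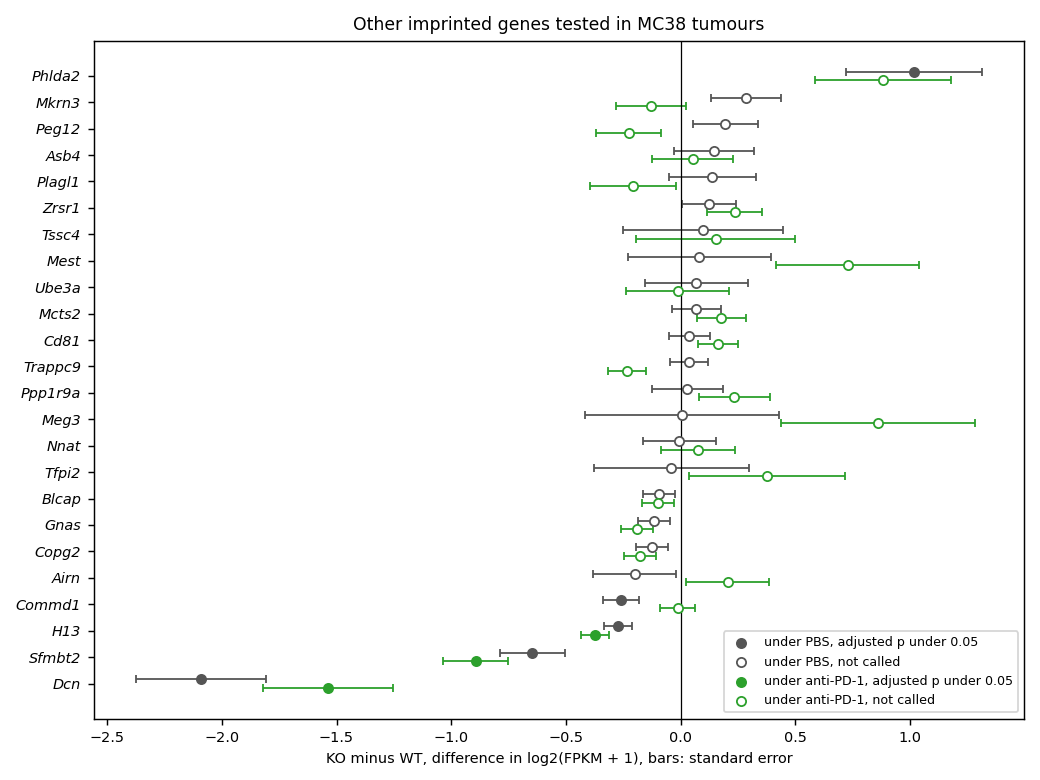
KO minus WT difference in log2(FPKM + 1), with standard errors, of the 24 other imprinted genes tested in MC38, under PBS (grey) and anti-PD-1 (green). Filled points passed an adjusted p of 0.05, open points did not. Dcn, Sfmbt2 and H13 lie left of 0 with filled points under each treatment, and Dcn is farthest left (-2.09 and -1.54).

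In B16 KO tumours under anti-PD-1 more of these genes were lower, in the libraries that stood apart. Of 20 PI3K, AKT and mTOR genes, 10 fell and 1 rose, and of 14 tested imprinting regulators 9 fell, with medians of -0.39 and -0.48 against -0.05 over all genes. Of all genes 40.8% were called, 14.9% higher and 25.9% lower. With protein-coding genes alone the numbers were 15 lower with none higher and 10 lower, where 4448 of 11149 genes were lower. Rictor, a subunit of mTORC2, stood at 11.2, 13.1 and 13.8 FPKM in WT anti-PD-1 and at 4.92, 6.17 and 6.47 in KO anti-PD-1 (-1.01 ± 0.110, limma adjusted p = 8.01e-05). Ctcf went from 14.4 ± 1.44 to 8.97 ± 0.777 FPKM (-0.63 ± 0.107, limma adjusted p = 0.00117) and Insr, the insulin receptor gene, from 4.42 ± 0.143 to 2.22 ± 0.185 (-0.75 ± 0.234, limma adjusted p = 0.0253). Of 19 imprinted genes tested, 5 fell and 2 rose. Plagl1, a zinc finger gene of the imprinted network, averaged 42.6 ± 4.97 FPKM in WT but 16.3 ± 2.01 in KO (-1.34 ± 0.117, limma adjusted p = 2.57e-05). Cd81 (0.56 ± 0.0890) and Commd1 (0.50 ± 0.170) rose, as did the IGF binding protein gene Igfbp6 (1.47 ± 0.421, limma adjusted p = 0.0176). None of the genes of these lists was called between KO and WT under PBS in B16.

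Within 500 kb of Igf2 and H19 the annotation holds 59 genes, of which 11 entered the MC38 fit. Limma called 3 of the 11 between genotypes under PBS (2 higher and 1 lower) and 1 under anti-PD-1, near the 23.4% and 12.1% of all genes called. Syt8, a synaptotagmin gene at chr7:142434850-142440396, was higher in KO under PBS (WT 0.656 ± 0.323 FPKM, KO 2.29 ± 0.473 FPKM, difference 1.00 ± 0.164, limma adjusted p = 0.00218) and anti-PD-1 (0.650 ± 0.260 and 3.20 ± 0.0815, limma adjusted p = 0.000905). Syt8 needed its KO libraries to pass the filter, which favours calls in that direction. Under PBS, Dusp8, a MAP kinase phosphatase gene, was higher (1.12 ± 0.113) and Tspan32, a tetraspanin gene, lower (-0.51 ± 0.126). Mrpl23, between H19 and Syt8, differed by -0.08 ± 0.0935 under anti-PD-1 (limma adjusted p = 0.630). Near Grb10 2 of 16 genes entered the fit, Ikzf1 and Fignl1, and neither was called. The troponin genes Tnnt3 and Tnni2 also lie near H19 and are muscle markers. In B16 KO anti-PD-1, 5 of 7 tested neighbours were called higher, where 14.9% of all genes were. Tnnt3, 1 of the 5, passed the filter only through the KO anti-PD-1 libraries, so its call supports nothing. These are the libraries with muscle transcripts and high FPKM sums, whose part was not tested. The 5 included Tnnt3 (114.2 ± 172.6 FPKM against 0 in WT), Ctsd (512.0 ± 75.8 against 350.1 ± 13.7) and Mrpl23 (4.06 ± 0.0572 against 2.75 ± 0.329).

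The genes most alike in pattern were ranked by Pearson's r of log2(FPKM + 1) over the 12 libraries of a line, as a description, since libraries of a group share genotype and treatment. In MC38, among 11882 genes, the 5 genes closest to Grb10 included Reep1 (0.985), Ccl2, Nit2 and Cyld, with r of at least 0.972. H19 was closest to Ppic (0.986), Rdh10, Ccdc122, Atl3 and Lipa, and Igf2 to Birc3 (0.963), Ptgs1, Masp1, Clec7a and Dsel. In B16, among 11331 genes, H19 was closest to Tpm2 (0.979), Nxpe5, Tuba4a, Mxra7 and Medag. Grb10 in B16 was closest to Mrc2 (0.974), Thbs2, Podxl, Cthrc1 and Gpx7.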

How the data were processed

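RNA of tumour tissue was measured in 24 libraries. The deposited tables hold FPKM per Ensembl gene, made by the authors. FastQC, STAR 2.5, Cuffnorm, DESeq and mm10 appear in the submitters' processing notes, with no role or order, and strand, counting rules and annotation release are not given in the sources used here. Total counts are not part of these tables, so depth was estimated from the FPKM step that 1 fragment makes in genes with 1 transcript, and no count test was run. Symbols and positions came from GENCODE vM21 (55154 of 55335 IDs matched) and sequences from RefSeq GRCm38.p6. No 2 libraries shared more than 0.0302% of nonzero values.

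A gene was tested when 3 or more libraries of a fit reached 1 FPKM, on log2(FPKM + 1) with limma 3.58.1 in R 4.3.3, with a mean-variance trend, 1 mean per group (12 libraries of a line, or all 24) and Benjamini-Hochberg adjustment over all genes tested, called at an adjusted p under 0.05. This left 14209 genes in MC38, 13627 in B16 and 15655 in all. All 10 members were named. From 13 lists, called genes were named, at most 4 per direction and comparison by size, and near Igf2, H19 or Grb10 at most 6 genes within 500 kb. Some list genes and neighbours that were not called or not largest (Igf1, Ins2, Ctcf, Mrpl23, Dusp8, Ctsd) were named after their values were seen. The 5 genes most alike in pattern were named, except 1 that is not reported here. The members, lists and rules were chosen with earlier results of these data known. The fit was tested on simulated data.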

Additional observations from a re-analysis of the deposited data

Results flagged for a closer look

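In B16, the response to anti-PD-1 differed between genotypes by a test of the difference itself for 2 receptor genes, by -0.62 for Igf2r and -0.63 for Igf1r on the log2(FPKM + 1) scale (limma adjusted p = 0.0179 and 0.0297), all 3 KO anti-PD-1 libraries lying below the other 9 B16 libraries for each gene. Of all genes 23.5% were called in that test. The Igf1r call was lost under 8 of 16 alternatives. The KO anti-PD-1 libraries stood apart by their FPKM sums and muscle transcripts, whose part was not tested.

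Between lines, the KO difference under anti-PD-1 differed by a test of that difference for 4 genes. It was -2.84 for Grb10 and -3.10 for H19 in MC38 minus B16 (limma adjusted p = 1.4e-05 and 0.00745), and 0.47 for Igf2r and 0.41 for Igf2bp3 (limma adjusted p = 0.0149 and 0.0339). Of all genes 31.8% were called in that test, so 4 of 10 is near the background. The Igf2bp3 call was lost under 8 of 16 alternatives. The B16 KO anti-PD-1 libraries behind the H19 value held muscle transcripts, whose part was not tested.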

How the results depend on the processing

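Of 77 member results with an adjusted p, 59 stayed on their side of the threshold under every alternative and 18 did not in at least 1. No called value changed direction. The 77 include Igf2 and Grb10 between MC38 treatments, which are given above as a description with no test. The alternatives were a pseudocount of 0.1, no filter, quantile normalization, protein-coding genes alone, and leaving out each library. Called genes were 5 instead of 0 without a filter for MC38 anti-PD-1 against PBS in WT. For B16 KO against WT under PBS they were 42 with a pseudocount of 0.1 and 33 without a filter, instead of 64. With a pseudocount of 0.1 the MC38 KO differences under PBS grew to -6.06 for Igf2, -4.15 for Grb10 and -1.76 for Cdkn1c.

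With 1 library left out, the counts of called genes ran from 2108 to 2850 for MC38 KO against WT under PBS, from 837 to 1283 under anti-PD-1, from 0 to 3 between MC38 treatments in WT, and from 616 to 1358 in KO. In B16 they ran from 10 to 17 for KO against WT under PBS, from 4119 to 5326 under anti-PD-1, from 0 to 1 between treatments in WT, from 4493 to 5585 in KO and from 2162 to 3305 for the interaction. They ran from 9180 to 9381 between lines and from 4262 to 5082 for the KO difference between lines. The cause was not tested. No paired analysis was possible because the labels carry no replicate numbers. The replicate numbers in the text only follow the order in which the libraries of a group are listed. H19 has no value with protein-coding genes alone. Levels near 1 fragment (Igf2 in MC38 KO PBS and KO anti-PD-1 replicate 1, H19 in B16 KO PBS) limit what can be said of their size.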
